A study of Mus musculus with 18 samples.

Results

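The regions described here carried acetylated histone H3 lysine 27 (H3K27ac) and the chromatin protein MBD3 in mouse cerebral cortex, and had neither H3K4me1 nor serine 5 phosphorylated RNA polymerase II (PolII_S5P). They were chosen from the peak lists themselves. Overlapping H3K27ac peaks of 3 animals on chromosomes 1 to 19 were merged into 83349 regions. A region was kept when it was under 5000 bp wide, had H3K27ac peaks from at least 2 libraries and MBD3 peaks from at least 2 libraries, and touched no H3K4me1 and no PolII_S5P peak of any library. This left 8217 regions, or 9.86% of all merged regions, called H3K27ac-MBD3 regions below. Since the rule read the H3K27ac, MBD3, H3K4me1 and PolII_S5P lists, values from those lists describe the regions and test nothing. TDG peaks played no part in the choice.

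The tissue came from wild-type C57BL/6J females of 14 weeks, untreated as far as the labels say. Frozen cortices of 3 mice, numbered 5, 7 and 9, each gave a chromatin immunoprecipitation sequencing (ChIP-seq) library per antibody, and an input sample that was not analysed here. Whole cortex mixes neurons, glia and vessel cells. Peaks of different antibodies at the same place therefore need not come from the same cells, and a weak peak cannot be told apart from a strong one in few cells. No gene annotation or sequence on the build of the files (mm39) was used, so regions are given by position (mm39, counted from 1), no nearby gene is named, and the tissue was not checked against marker genes.

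H3K27ac is laid down by the acetyltransferases p300 and CBP and marks active promoters and enhancers. H3K4me1 is typical of enhancers, active or primed, and polymerase phosphorylated on serine 5 is the form that has begun transcription and often pauses near start sites. MBD3 is a core subunit of NuRD, a complex that joins a nucleosome remodeller (CHD4 or CHD3) with histone deacetylases (HDAC1 and HDAC2). MBD3 resembles the methyl-CpG binding protein MBD2 but binds methylated DNA poorly. TDG (thymine DNA glycosylase) removes thymine from G:T mismatches and removes the oxidized cytosines 5-formylcytosine and 5-carboxylcytosine that TET enzymes make from methylcytosine. The series is titled for a link between TDG and the NuRD subunit MBD3, and the TDG comparison below asks how often TDG lies where MBD3 and acetylation meet away from polymerase.

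The lists differed in length. On chromosomes 1 to 19 they held 57846 to 67877 peaks for H3K27ac and 38821 to 61187 for MBD3. H3K4me1 lists held 22555 to 45575 peaks. PolII_S5P lists held 4351, 19509 and 12526 peaks in animals 5, 7 and 9, and TDG lists 125, 240 and 934. Read depth is unknown, so a missing peak means that none was called in these lists, not that the mark was absent.

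Each step of the rule reduced the number of regions. Of 81896 regions under the width limit, 51119 had H3K27ac from at least 2 libraries. Under the width limit, 26777 regions had H3K27ac and MBD3 from at least 2 libraries each. Of these, 35.6% had an H3K4me1 peak and no PolII_S5P peak in any library, 22.4% had PolII_S5P and no H3K4me1, 11.3% had both, and 30.7% had neither and are the regions described here. Each animal placed 12.7% of its H3K27ac peaks in them. MBD3 lists placed 14.8%, 14.0% and 16.3% of their peaks there in animals 5, 7 and 9.

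For comparison, 3 other groups were formed under the same width limit and with H3K27ac from at least 2 libraries. Acetylated regions without MBD3 (10589) had no MBD3, H3K4me1 or PolII_S5P peak in any library. Polymerase-bound regions (3770) had MBD3 and PolII_S5P from at least 2 libraries each and no H3K4me1. H3K4me1-bearing regions (5836) had MBD3 and H3K4me1 from at least 2 libraries each and no PolII_S5P.

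The H3K27ac-MBD3 regions were of middle width. Their median was 1063 bp, with a middle range from 667 bp (lower quartile) to 1693 bp (upper quartile). Acetylated regions without MBD3 had a median of 636 bp, polymerase-bound regions 1409 bp and H3K4me1-bearing regions 1822 bp. Width was part of the rule and was not matched between the groups. Under 500 bp lay 1073 regions (13.1%), and 1423 (17.3%) reached 2000 bp or more. The narrowest measured 270 bp.

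**Figure D1:**
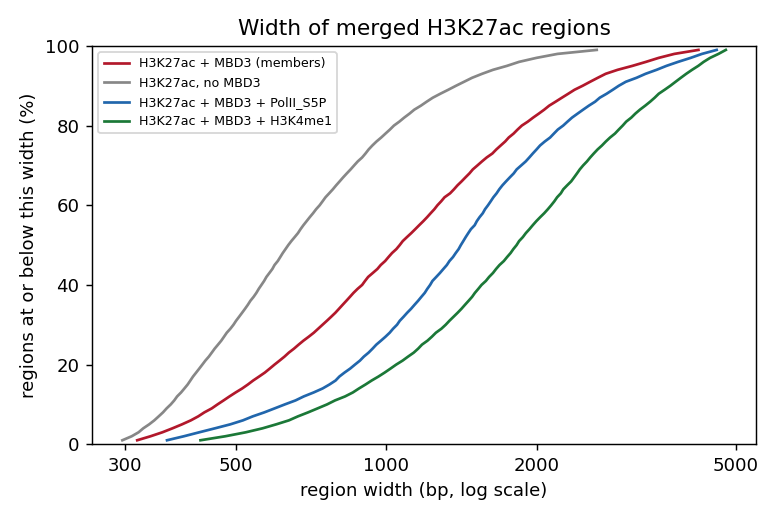
Share of regions (vertical axis, %) at or below each width (horizontal axis, bp on a log scale) for the H3K27ac-MBD3 regions (members) and the 3 comparison groups. The curve of the H3K27ac-MBD3 regions, median 1063 bp, lies between acetylated regions without MBD3 (636 bp) and polymerase-bound regions (1409 bp).

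The width limit removed few regions. The widest H3K27ac-MBD3 regions were chromosome 9, 103107838 to 103112816 (4979 bp), and chromosome 15, 36984451 to 36989411 (4961 bp). Just outside were chromosome 18, 7001697 to 7006696 (5000 bp), and chromosome 7, 30748821 to 30753844 (5024 bp). The pair inside had H3K27ac fold enrichments of 4.67, 5.78 and 5.52, and of 4.90, 4.64 and 7.00, in animals 5, 7 and 9. The pair outside had 7.93, 5.35 and 4.10, and 6.62, 6.63 and 6.12. Regions just inside and just outside the limit thus overlapped in H3K27ac strength. In all, 107 regions at or over the limit otherwise met the rule.

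Acetylation was of ordinary strength for its list. Strength is the fold enrichment that the authors' peak caller gave the strongest peak in a region. It is a ratio to local background and was not scaled between lists here. The median H3K27ac fold was 3.70, 3.64 and 3.43 in animals 5, 7 and 9 (mean 3.59 ± 0.141, SD, n = 3). These medians sat at percentiles 51.2, 48.5 and 39.2 of their own lists. Acetylated regions without MBD3 had medians of 3.41, 3.54 and 3.66, lower in animals 5 and 7 and higher in animal 9. Polymerase-bound regions had 6.02, 5.59 and 4.13, and H3K4me1-bearing regions 4.80, 4.86 and 4.78. In every animal both groups with a further mark lay above the H3K27ac-MBD3 regions.

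MBD3 was a little above the middle of its lists. Its median fold was 6.92, 6.56 and 5.72 in animals 5, 7 and 9 (mean 6.40 ± 0.615, SD, n = 3), at percentiles 62.0, 61.7 and 52.3. H3K4me1-bearing regions had 7.24, 7.32 and 7.31. Polymerase-bound regions had 8.37, 7.58 and 4.76, so they lay above the H3K27ac-MBD3 regions in animals 5 and 7 and below them in animal 9. Fold enrichment had its lowest median in animal 9 for both marks in the H3K27ac-MBD3 regions. That animal also had the shortest list for both.

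**Figure D2:**
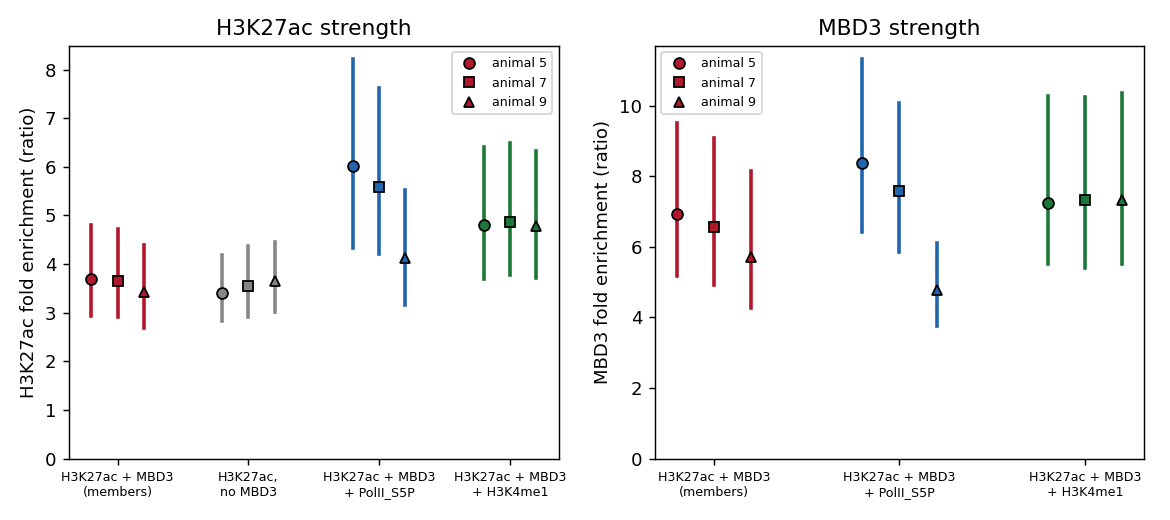
Fold enrichment (vertical axes, ratio) of the strongest H3K27ac peak (left) and MBD3 peak (right) in each region, by group of regions and animal; points are medians over regions with a peak in that animal and bars span the quartiles. H3K27ac medians of the H3K27ac-MBD3 regions (3.43 to 3.70) lie near those of regions without MBD3 and below the other groups.

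Both marks were found in all 3 animals at 4065 regions (49.5%). H3K27ac was called in all 3 libraries at 5617 regions and MBD3 at 5492. Where a library was missing it was mostly that of animal 9, with no H3K27ac peak at 1932 regions and no MBD3 peak at 2253. Animals 5 and 7 lacked H3K27ac at 364 and 304 regions and MBD3 at 309 and 163. The regions with both marks in every animal were wider, with a median of 1408 bp, and the median of their mean percentile over animals was 53.7 for H3K27ac and 63.4 for MBD3.

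The order of regions by strength was shared in part between animals. Over regions with peaks in both animals of a pair, Spearman's rho of the MBD3 fold was 0.723 between animals 5 and 7 (7745 regions), 0.502 between 5 and 9, and 0.604 between 7 and 9. For H3K27ac it was 0.640, 0.462 and 0.561. Within an animal, H3K27ac and MBD3 fold were only weakly related, with rho of 0.231, 0.227 and 0.289 in animals 5, 7 and 9. Width went with H3K27ac fold (rho of 0.378, 0.387 and 0.201) and hardly with MBD3 fold (0.0514, 0.0168 and -0.0757). These coefficients run across regions, which are not replicates and share their library and its background, and so carry no p-value.

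MBD3 occupied part of the acetylated region, and its summit was rarely at the acetylation summit. MBD3 peaks covered a median of 47.3%, 46.5% and 31.5% of the region in animals 5, 7 and 9. The MBD3 summit lay a median of 272, 275 and 292 bp from the H3K27ac summit of the same animal. It was within 100 bp at 16.7%, 16.2% and 13.1% of regions. In 67.1%, 62.8% and 51.2% of regions the MBD3 summit fell inside an H3K27ac peak of the same animal. That share was 83.7%, 81.2% and 66.5% in polymerase-bound regions and 82.8%, 80.3% and 69.8% in H3K4me1-bearing ones. In each animal the H3K27ac-MBD3 regions thus had the lowest share of MBD3 summits inside acetylated peaks among these groups. Summit distance in bp and MBD3 coverage gave another order. The summits were farther apart in H3K4me1-bearing regions (326, 333 and 341 bp) and closer in polymerase-bound ones (229, 227.5 and 243 bp). MBD3 covered a median of 30.9%, 33.0% and 23.5% of H3K4me1-bearing regions and 72.2%, 71.8% and 40.1% of polymerase-bound ones. By both measures the H3K27ac-MBD3 regions lay between the other groups in each animal. They were narrower than both, and scaling the summit distance to region width changed its order. As a percent of width its medians were 23.7, 23.7 and 22.0 in the H3K27ac-MBD3 regions. Polymerase-bound regions had 16.0, 16.0 and 15.7, and H3K4me1-bearing ones 17.9, 18.1 and 18.0. Scaled to width, the distance was thus largest in the H3K27ac-MBD3 regions in each animal.

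Most regions had 1 peak of each mark per animal. In animal 5, 91.2% had a single MBD3 peak and 93.4% a single H3K27ac peak. An MBD3 peak can reach across neighbouring regions. In the animal with the most such cases, 518 regions had a strongest MBD3 peak that was also the strongest of another H3K27ac-MBD3 region, so regions are not fully independent of each other.

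The strongest MBD3 sites of this class stood at the top of the list in every animal. By mean percentile over animals the first was chromosome 11, 54723307 to 54726011, with MBD3 folds of 58.0, 34.1 and 27.2 in animals 5, 7 and 9 and H3K27ac folds of 9.61, 9.35 and 9.41. Chromosome 3, 148938017 to 148940028, had MBD3 folds of 24.8, 34.2 and 42.9. The fold was highest in animal 5 at the first of these sites and in animal 9 at the second. Chromosome 4, 41931036 to 41934738, had MBD3 folds of 30.7, 26.7 and 30.5 with H3K27ac folds of 3.50, 4.26 and 4.05. Chromosome 17, 14591073 to 14591675, had 33.2, 31.4 and 23.1 for MBD3. Chromosome 6, 98235317 to 98236043, had 29.5, 31.5 and 22.7. The last 3 had H3K27ac at mean percentiles of 55.7, 40.0 and 62.4, so acetylation there was near the middle of its lists.

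The strongest acetylated sites held MBD3 of varied strength. Chromosome 2, 65244166 to 65245726, had H3K27ac folds of 11.98, 17.7 and 11.9 in animals 5, 7 and 9 and MBD3 folds of 11.2, 6.54 and 6.06. Chromosome 2, 8016959 to 8018584, had H3K27ac folds of 14.2, 13.3 and 10.3 and MBD3 folds of 16.2, 23.1 and 15.1. It lay 484791 bp from the nearest PolII_S5P peak. Among the next sites, chromosome 8, 36717732 to 36719503, had H3K27ac folds of 14.2, 11.7 and 10.8, and chromosome 8, 45960365 to 45962077, had 14.0, 11.9 and 10.3. Chromosome 5, 30823301 to 30824112, had H3K27ac folds of 10.8, 13.1 and 13.2 and MBD3 folds of 5.26, 4.62 and 9.38. None of the 10 strongest sites by either mark carried a TDG peak in any animal. Only 1.17% of all H3K27ac-MBD3 regions had one in at least 1 animal, so 10 sites are too few to show a difference.

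Polymerase was far from most of these regions. The median distance from the edge of a region to the nearest PolII_S5P peak of any animal was 39624 bp, with quartiles of 13079 and 106395 bp. Within 1 kb lay 341 regions (4.15%), and 658 (8.01%) lay 1 to 5 kb away. Another 1749 (21.3%) were 5 to 20 kb away and 3299 (40.1%) were 20 to 100 kb away. The remaining 2170 (26.4%) were 100 kb or more from any such peak. Since the rule removed all regions that touch polymerase, these values describe only how far the rest lie.

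**Figure D3:**
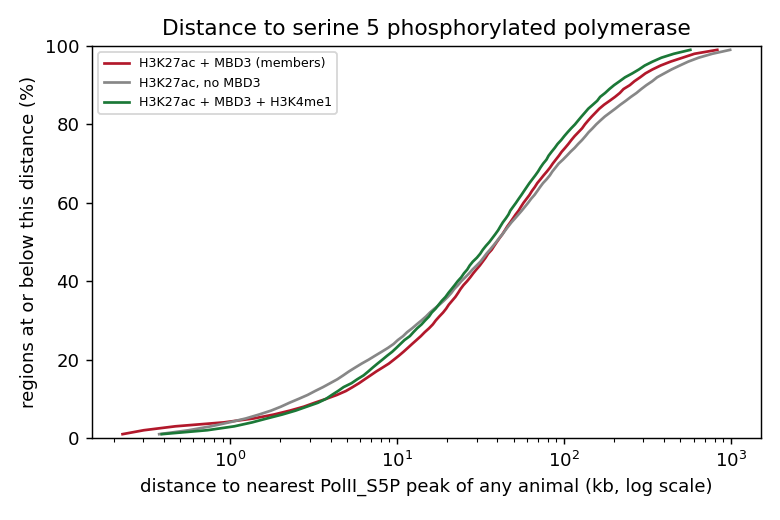
Share of regions (vertical axis, %) at or below each distance to the nearest PolII_S5P peak of any animal (horizontal axis, kb on a log scale) for groups that touch no such peak. The curves of the H3K27ac-MBD3 regions and of acetylated regions without MBD3 meet near their medians of 39624 bp and 39324 bp, and H3K4me1-bearing regions lie to the left of both there (35758 bp).

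Distances to polymerase were compared between regions with and without MBD3. The median to any animal's peak was 39624 bp with MBD3 and 39324 bp without, and 35758 bp for H3K4me1-bearing regions. Measured to each animal's own list, the medians with MBD3 were 197983, 45033 and 64439 bp in animals 5, 7 and 9. Without MBD3 they were 256004, 47217 and 71723 bp. The difference in the log10 of the median was -0.0596 ± 0.0469 (SD of the differences, n = 3), a ratio of 0.872. It was negative in 3 of 3 animals (-0.112, -0.0206 and -0.0465) and is given as a description, since the rule used the PolII_S5P lists. The animals' own medians moved with the length of their PolII_S5P lists, the shortest list (4351 peaks, animal 5) giving the largest distance. With lists of equal length for each antibody, the median to any animal's peak was 98851 bp. That setting also changed which regions met the rule (10861 regions), so the value is not for the same regions.

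By distance class, the H3K27ac-MBD3 regions were more often at 20 to 100 kb and less often at 1 to 5 kb than acetylated regions without MBD3. The class of 20 to 100 kb held 40.1% of the former and 35.3% of the latter, and that of 1 to 5 kb held 8.01% and 12.6%. Under 1 kb lay 4.15% and 4.08%, at 5 to 20 kb 21.3% and 19.2%, and at 100 kb or more 26.4% and 28.8%. An acetylated region with polymerase lay within 10 kb of 18.5% of the H3K27ac-MBD3 regions and of 23.7% of those without MBD3.

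H3K27ac strength changed little with distance from polymerase, and MBD3 strength changed in ways that differed between animals. Regions within 1 kb were narrower, with a median of 718 bp, and had median MBD3 folds of 7.71, 7.13 and 4.62 in animals 5, 7 and 9. Regions 100 kb or more away had a median width of 1000 bp and MBD3 folds of 7.12, 6.90 and 6.23. MBD3 was thus higher in the nearest class than in the farthest in animals 5 and 7 and lower in animal 9. From near to far, the median MBD3 fold of animal 9 was 4.62, 5.18, 5.37, 5.77 and 6.23. In animals 5 and 7 it was lowest at 1 to 5 kb (6.57 and 6.18). H3K27ac folds were 3.68, 3.63 and 3.28 in the nearest class and 3.83, 3.78 and 3.66 in the farthest, slightly higher far away in each animal.

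The extremes were separated by orders of magnitude. The regions closest to polymerase were all on chromosome 18, at 74400712 to 74401070, 82586175 to 82587138 and 19601844 to 19602454, with gaps of 1, 2 and 8 bp. The third of these had strong MBD3 (folds of 15.3, 17.3 and 20.1 in animals 5, 7 and 9) and lay 490998 bp from the nearest H3K4me1 peak. At the other end, chromosome 14, 96755838 to 96756337, lay 2526989 bp from polymerase, with weak marks (H3K27ac folds of 3.11 and 2.01 in animals 5 and 7, MBD3 folds of 3.16 and 2.73 in animals 7 and 9). Chromosome 19, 50547062 to 50547467, was 2479269 bp away, with MBD3 folds of 7.07, 11.2 and 11.6. Chromosome 1, 28253273 to 28254329, was 2383720 bp away, with MBD3 folds of 14.3, 10.5 and 15.6.

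The nearest H3K4me1 peak was closer than the nearest PolII_S5P peak. H3K4me1 lists were longer, however, with 22555 to 45575 peaks against 4351 to 19509 for PolII_S5P. The distances to these marks were not adjusted for list length, so they cannot be compared with each other. The median distance to the nearest H3K4me1 peak of any animal was 10271 bp, against 4971 bp for acetylated regions without MBD3. In each animal's own list the medians were 20751, 16647 and 47891 bp with MBD3 and 12414, 7997 and 23547 bp without. The H3K27ac-MBD3 regions were the farther group in 3 of 3 animals. The nearest other H3K27ac region was also farther, at a median of 1542 bp against 492 bp, and 5884 bp for polymerase-bound regions.

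TDG was rare at these regions, and most of what there was came from animal 9. TDG peaks in at least 1 animal lay on 96 of the 8217 regions (1.17%), where 0.816% of all merged H3K27ac regions had one. By animal, 30, 28 and 96 regions carried TDG in animals 5, 7 and 9, or 0.365%, 0.341% and 1.17% (mean 0.625 ± 0.471%, SD, n = 3). Over all merged regions these shares were 0.0936%, 0.0828% and 0.786%. Every region with TDG in animal 5 or 7 also had it in animal 9. TDG was in all 3 animals at 21 regions, in animals 5 and 9 at 9, in 7 and 9 at 7, and in animal 9 alone at 59. Without the chromosome 6 runs described below the shares were 0.207%, 0.146% and 0.976%. With an animal left out and both remaining libraries required, the mean was 1.01% without animal 5, 0.982% without animal 7 and 0.392% without animal 9.

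Regions with TDG in more than 1 animal were a larger share here than among all regions. TDG in at least 2 animals lay on 37 of the H3K27ac-MBD3 regions, where 0.0972% of all merged regions had it. TDG peaks of all 3 animals lay on 0.256% of the H3K27ac-MBD3 regions and on 0.0492% of all merged H3K27ac regions. Of the 41 merged regions with TDG in every animal, 21 (51.2%) were H3K27ac-MBD3 regions, which made up 9.86% of all regions. Another 5 were polymerase-bound (0.133% of 3770), and none was among the H3K4me1-bearing regions or the acetylated regions without MBD3. Regions kept out by PolII_S5P in a single library, without H3K4me1, had TDG in every animal at 6 of 2232. Of the 21, 13 lay in neighbouring runs on chromosome 6 described below. Without those runs 8 of 28 merged regions with TDG in every animal (28.6%) were H3K27ac-MBD3 regions, and 21 H3K27ac-MBD3 regions had TDG in at least 2 animals. These 8 were out of 8200 H3K27ac-MBD3 regions outside the runs, a share not above that of the polymerase-bound regions (5 of 3770). Of the TDG peaks themselves, 32 of 125, 28 of 240 and 101 of 934 in animals 5, 7 and 9 touched an H3K27ac-MBD3 region (25.6%, 11.7% and 10.8%). These shares include the chromosome 6 runs. Any merged H3K27ac region was touched by 66.4%, 28.75% and 71.7% of the TDG peaks. Polymerase-bound regions were touched by 6.4%, 2.08% and 5.14%. H3K4me1-bearing regions were touched by 0 TDG peaks in animals 5 and 7 and by 149 (16.0%) in animal 9, more than the H3K27ac-MBD3 regions there.

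Acetylated regions without MBD3 almost never had TDG. They had 0, 0 and 6 TDG-bearing regions of 10589 in animals 5, 7 and 9, and a count of 0 allows up to 0.0283%. The H3K27ac-MBD3 regions exceeded them by 0.365, 0.341 and 1.11 percentage points, a mean of 0.606 ± 0.438 (SD, n = 3), in the same direction in 3 of 3 animals. The groups did not overlap, and the two-sided exact permutation p was 0.1, the smallest that 3 values against 3 can give (adjusted p = 0.4). Averaged with equal weight over 9 classes of width and H3K27ac strength, the difference was 0.670 points. It was positive in 23 of 27 combinations of class and animal. The classes span ranges of width and strength, held 439 to 1427 H3K27ac-MBD3 regions each, and kept the chromosome 6 runs. Without classes, the difference was 0.424 points without the chromosome 6 runs, 0.392 without animal 9, 0.973 without animal 5 and 0.937 without animal 7.

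**Figure D4:**
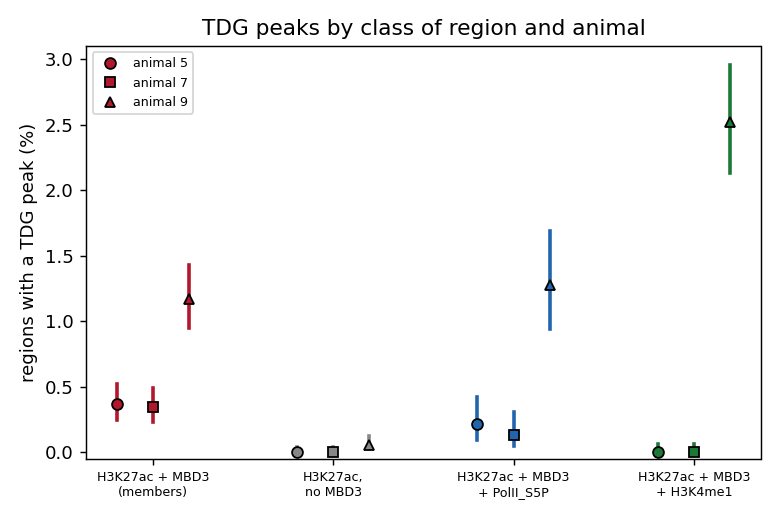
Percent of regions with a TDG peak (vertical axis) in each animal, for the H3K27ac-MBD3 regions (members) and the 3 comparison groups; bars are exact binomial 95% intervals, which cover counting error only. Animals 5 and 7 show TDG at 0.365% and 0.341% of the H3K27ac-MBD3 regions and at none of the regions without MBD3 or with H3K4me1.

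Regions with a further mark gave different answers in different animals. Polymerase-bound regions had TDG at 0.212%, 0.133% and 1.27% in animals 5, 7 and 9. The H3K27ac-MBD3 regions were higher by 0.153 and 0.208 points in animals 5 and 7 and differed by -0.105 points in animal 9 (mean 0.0854 points, two-sided exact permutation p = 0.6, adjusted p = 0.933). That mean was -0.331 points without animal 7 and -0.0963 without the chromosome 6 runs. H3K4me1-bearing regions had TDG at 0 of 5836 in animals 5 and 7, which allows up to 0.0514%, and at 147 (2.52%) in animal 9. The mean difference of -0.215 points had opposite directions in animal 9 and the other animals (two-sided exact permutation p = 1, adjusted p = 1), and was 0.370 points without animal 9.

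The share of regions with TDG was higher where MBD3 was stronger. In 3 classes of 2739 regions each, ordered by mean MBD3 percentile, TDG lay at 11, 31 and 54 regions from the lowest class to the highest. Without the chromosome 6 runs the counts were 11, 25 and 44. For TDG in at least 2 animals they were 3, 13 and 21, and 3, 7 and 11 without those runs. The median MBD3 fold where TDG was called was 10.3, 10.5 and 5.97 in animals 5, 7 and 9. Where it was not called in that animal, the median was 6.92, 6.55 and 5.72. Without the runs they had 10.2, 8.53 and 6.66. Regions with TDG were thus above the rest in each animal, with and without the runs.

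For acetylation the answer turned on the chromosome 6 runs. Regions with TDG had median H3K27ac folds of 3.23 and 3.33 in animals 5 and 7, below the 3.70 and 3.64 of the rest. In animal 9 they had 3.98 against 3.43. Without the runs the medians were 5.91, 4.88 and 4.39, so that regions with TDG lay above the rest in all 3 animals. Over classes of H3K27ac strength TDG lay at 26, 22 and 48 regions from the lowest class to the highest, and at 12, 20 and 48 without the runs. These values describe the regions and were not tested.

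No region within 1 kb of polymerase carried TDG (0 of 341, which allows a share of up to 0.880%, by counting error only). The counts were 8 of 658 at 1 to 5 kb, 28 of 1749 at 5 to 20 kb, 26 of 3299 at 20 to 100 kb and 34 of 2170 farther away.

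TDG summits lay a median of 283, 227 and 206 bp from the MBD3 summit in animals 5, 7 and 9, and 306, 438 and 307 bp from the H3K27ac summit. MBD3 was the nearer summit in each animal. Without the chromosome 6 runs the medians were 224.5, 384.5 and 190.0 bp to MBD3 and 236, 328 and 278 bp to H3K27ac, so that in animal 7 the order turned. The strongest TDG peak per H3K27ac-MBD3 region had median folds of 7.01, 7.92 and 5.70, and 9.82, 7.96 and 5.36 without the runs. All single TDG peaks elsewhere, within or outside acetylated regions, had medians of 6.87, 4.44 and 4.47. The units differ, regions in the former and peaks in the latter, so these values are not a like comparison.

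Single regions with TDG in every animal differed in their makeup. Chromosome 16, 57427194 to 57427525, had TDG folds of 11.5, 15.6 and 20.0 in animals 5, 7 and 9, but weak MBD3 (3.73 and 3.40 in animals 7 and 9, none in animal 5), and lay 375415 bp from polymerase. Chromosome 5, 124620278 to 124622345, had TDG folds of 10.2, 19.5 and 11.7 and MBD3 folds of 10.7, 10.1 and 5.04, with polymerase 3818 bp away. Chromosome 6, 128737162 to 128738552, had TDG folds of 9.86, 8.84 and 15.2 and strong acetylation (8.84, 7.29 and 6.36). These 3 had stronger H3K27ac than the median region in each animal with an H3K27ac peak.

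Chromosome 11 held 4 of the 8 such regions outside the runs. The strongest was 68953306 to 68955028, with TDG folds of 12.6, 11.2 and 17.3 in animals 5, 7 and 9, and its neighbour 68931320 to 68932580 had 7.55, 7.45 and 10.9. At the neighbour H3K27ac was weak (2.40, 2.79 and 2.47), and MBD3 was 6.80, 11.6 and 6.65. The region 58192728 to 58194091 had TDG folds of 7.57, 6.72 and 12.3 and MBD3 folds of 8.80, 15.8 and 8.81. The remaining ones, chromosome 11, 76297710 to 76298402, and chromosome 1, 170929678 to 170930339, were named after their values were seen, with TDG folds of 4.50, 7.08 and 7.23, and of 4.83, 8.47 and 6.22.

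Some of the strongest TDG signals were called on the region in only 2 animals. Chosen after the values were seen, chromosome 13, 21894275 to 21894687, had TDG folds of 22.7 and 39.6 in animals 7 and 9, with MBD3 folds of 12.8, 14.0 and 16.9 in animals 5, 7 and 9. Chromosome 11, 48724810 to 48725264, had TDG folds of 15.0 and 26.1 in animals 5 and 9 and H3K27ac folds of 10.1, 10.1 and 8.52. Chromosome 3, 96406927 to 96408710, had TDG folds of 15.5 and 24.6 in animals 5 and 9. Chromosome 1, 170865685 to 170866120, had 10.7 and 15.5 in the same animals. Chromosome 13, 22158546 to 22159156, had 6.74 and 16.3 in animals 7 and 9. A TDG peak was counted only where it touched the merged H3K27ac region itself, so a peak beside it does not count.

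The H3K27ac-MBD3 regions sometimes lay close together. Of the 8217, 2303 (28.0%) had another such region within 10 kb, and the median distance to the next one was 34944 bp. Runs of 5 or more regions with gaps of at most 10 kb numbered 20 and held 119 regions. TDG was found in 2 of these runs, both on chromosome 6, and in none of the other 18. The longest runs without TDG held 8 regions each. They spanned positions 115346346 to 115374957 of chromosome 5 and 25826993 to 25871378 of chromosome 17. A run of 7 lay at chromosome 7, 19041554 to 19079278. Those of 6 began at 138223361 on chromosome 4 (ending at 138258834) and at 44235808 on chromosome 7 (ending at 44256596). Others of 6 spanned 98223350 to 98259251 on chromosome 11 and 61799421 to 61825661 on chromosome 18.

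The 11 runs of 5 were spread over 9 chromosomes. On chromosome 2 they lay at 31973362 to 32003379, 84699005 to 84720231 and 154385777 to 154411609. Chromosome 4 had one at 43025172 to 43047030, chromosome 7 at 100946129 to 100979055 and chromosome 8 at 124494523 to 124516968. Further ones spanned 56628768 to 56665626 on chromosome 9, 87024146 to 87039031 on chromosome 12 and 81964548 to 81975846 on chromosome 15. The last spanned 47812911 to 47822853 on chromosome 17 and 82927641 to 82936254 on chromosome 18. Median MBD3 percentiles were highest in the runs on chromosomes 12 (87.8) and 15 (82.0), and the median H3K27ac percentile was highest in the first run on chromosome 2 (74.3).

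On chromosome 6 a pair of runs was weak in H3K27ac and, in animals 5 and 7, strong in MBD3. They held 17 regions between 47631787 and 47750038, 8 in the first run and 9 in the second. TDG was present in all 3 animals at 13, in 2 animals at 3 and in none at 1, the region at 47730969 to 47731272, which was also the narrowest (304 bp). H3K27ac folds had medians of 2.93, 3.05 and 1.96 in animals 5, 7 and 9, at percentiles 25.2, 28.7 and 1.58 of their lists. MBD3 folds had medians of 10.8, 10.8 and 4.79, at percentiles 86.3, 88.4 and 35.5. In animal 9 MBD3 was thus below the middle of its list, unlike in the other animals, and the lists of that animal were the shortest for both marks.

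TDG was stronger in the first run than in the second. The region with the highest mean TDG fold, 47636365 to 47637400, had 7.06, 13.4 and 9.12 in animals 5, 7 and 9. Its folds in the first run ranged from 4.64 to 7.06 in animal 5, 8.39 to 13.4 in animal 7 and 6.72 to 9.12 in animal 9. In the second run they ranged from 2.78 to 5.19, 1.66 to 7.39 and 1.93 to 6.83. The ranges of the runs did not overlap in animal 7. In animals 5 and 9 they overlapped at their edges. MBD3 did not follow this order, with medians of 10.6, 10.8 and 4.86 in the first run and 11.1, 10.8 and 4.52 in the second.

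Neighbouring regions in these runs had a median midpoint spacing of 4327 bp over 15 gaps, from 1031 to 5400 bp. Between the runs lay 53.1 kb with no H3K27ac, H3K4me1 or PolII_S5P peak in any animal. It held 2, 4 and 3 MBD3 peaks in animals 5, 7 and 9 and a single TDG peak, in animal 7. Polymerase was 15251 to 132160 bp away. The sources used here do not give how reads that map to more than 1 place were treated, and neither this nor the sequence of the runs was examined.

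**Figure D5:**
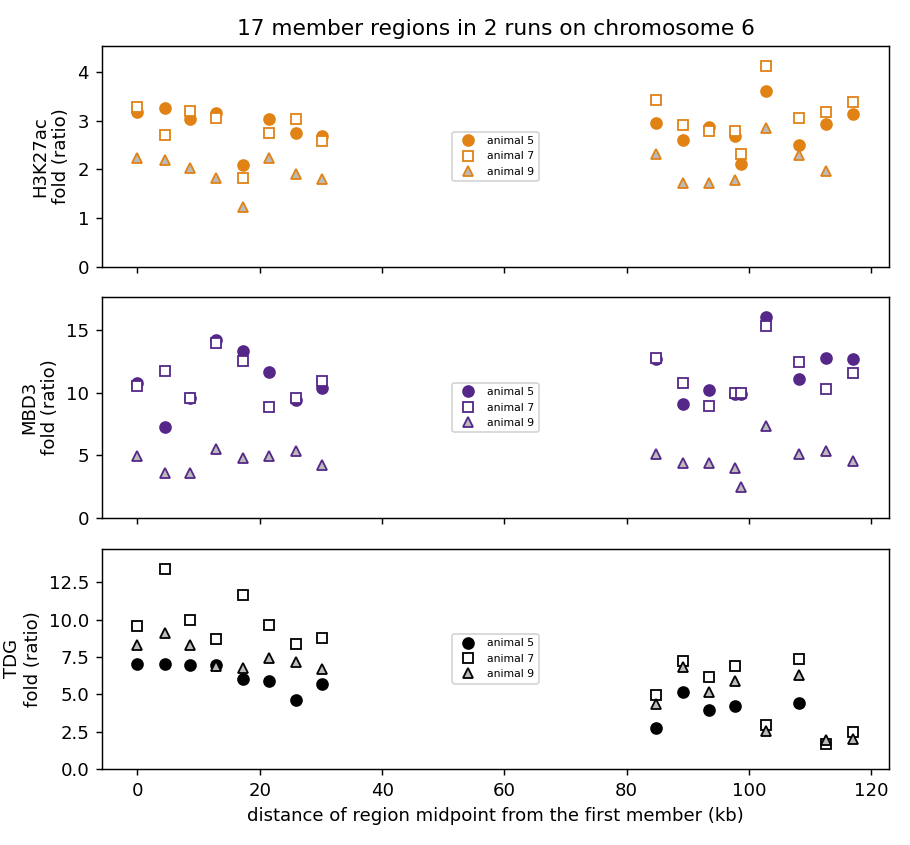
Fold enrichment (vertical axes, ratio) of H3K27ac, MBD3 and TDG in the 17 regions of the chromosome 6 runs against the distance of their midpoints from the first (horizontal axis, kb), by animal; no symbol means no peak. TDG is higher in the first run (8.39 to 13.4 in animal 7) than in the second (1.66 to 7.39), while MBD3 is alike in both.

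All 19 chromosomes held such regions. They made up 7.61% of the merged H3K27ac regions on chromosome 16, the lowest share, and 12.7% on chromosome 7, the highest. Chromosomes 17, 5, 4 and 11 followed with 12.2%, 12.2%, 11.9% and 11.8%. In number, chromosome 7 had the most (640), followed by chromosomes 11 (625) and 2 (617).

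Regions just outside the rule resembled those inside it to different degrees. Where MBD3 was called in 1 library only, 2282 regions had a median width of 816 bp, an MBD3 percentile of 25.4 and TDG at 4 regions (0.175%). H3K27ac-MBD3 regions with MBD3 in 2 libraries numbered 2725, with 893 bp, a percentile of 38.9 and TDG at 10 (0.367%). Those with MBD3 in all 3 numbered 5492, with 1181 bp, 62.2 and TDG at 86 (1.57%). Of these 86, 16 lay in the chromosome 6 runs. A single PolII_S5P library excluded 2232 regions, with a median H3K27ac percentile of 60.9, TDG at 22 (0.986%) and TDG in all 3 animals at 6. A single H3K4me1 library excluded 3693, with an H3K27ac percentile of 55.5 and TDG at 42 (1.14%). Over all merged H3K27ac regions the share with TDG in at least 1 animal was 0.816%.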

How the data were processed

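ChIP-seq peak lists of 15 libraries (5 antibodies, 3 animals) were analysed. The submitters' processing notes name MACS2 (2.2.7.1), Picard (2.18.29), SAMtools (1.16.1), Trim Galore (0.6.7) and bcl2fastq (2.20), and the builds mm39 and hg38. Neither the aligner nor the background library for MACS2 is named there. The authors deposited 1 list per library, with a score, a fold enrichment (ratio), −log10 p-value and −log10 q-value, and a summit offset (another kind of number, in bp) per peak.

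Members, comparison groups and lists were chosen with earlier results of these data known. Overlap means at least 1 bp. Per-animal values were compared by two-sided exact permutation tests, with Benjamini-Hochberg adjustment over 4 comparisons: 3 of TDG, of which the one with H3K4me1-bearing regions was added after seeing the data, and the distance to PolII_S5P, whose p-value is not reported because the rule used that list. Labels give libraries of the same number to the same animal. Over 4065 regions the deviations of H3K27ac and MBD3 fold correlated at 0.389, 0.211 and 0.451 within animals 5, 7 and 9. Between different animals the coefficients ran from -0.359 to 0.0204. Deviations were centred on each region's mean over animals, so positive same-animal values by themselves force lower ones between animals. The animals are the replicates. Names of the H3K27ac, H3K4me1 and PolII_S5P lists carry 1, 2 and 3 where the labels give animals 5, 7 and 9, so every same-animal value for them rests on the labels.

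Positions were named by rule: the 10 regions with TDG in every animal and the highest mean TDG fold, the 5 strongest for each of MBD3 and H3K27ac, the 3 nearest and 3 farthest from polymerase, the 2 on each side of the width limit, and runs of 5 or more. Gene lists, promoter position and base composition were not analysed here. The code was tested on simulated lists. Intervals are exact binomial (95%). The share that a count of 0 allows is another limit, 3 divided by the number of regions. It lies below the upper end of the exact interval, with 0.0283% against 0.0348% for 0 of 10589. Tests over animals take the shares of both groups from the same TDG or PolII_S5P libraries. Results without the chromosome 6 runs were added after seeing the data. Code ran in Python (3.11.15) with scipy (1.17.1), pandas (2.3.3), numpy (2.4.6) and matplotlib (3.10.9).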

Additional observations from a re-analysis of the deposited data

Results flagged for a closer look

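Chromosome X was outside the rule, which covers chromosomes 1 to 19, and drew attention because regions of the same kind appeared in these unused data. There 274 of 1185 merged H3K27ac regions met the same criteria. That is 23.1%, against 7.61% to 12.7% on chromosomes 1 to 19. H3K4me1 was called in any library at 7.85% of the X regions and at 38.9% of the others, while MBD3 from at least 2 libraries was at 47.2% and 38.6% and PolII_S5P in any library at 18.5% and 15.7%. Whether the lower share with H3K4me1 accounts for the X share was not tested. The X regions had a median width of 1088.5 bp, and 1 carried TDG.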

How the results depend on the processing

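Read depth is unknown, which limits any statement on missing peaks. The number of regions, 8217, became 5411 with −log10 q of at least 5 for H3K27ac and MBD3 only, and 4065 with peaks required from all 3 libraries. It rose to 9538 with that threshold in all lists and to 10861 with lists of equal length, and lay between 5596 and 7789 with 1 animal left out. Median width was 1440.5 bp with −log10 q of at least 5 in all lists, 1243 bp with that threshold for H3K27ac and MBD3 only, 1291 bp with summits inside the region, 1326 bp with peaks within 500 bp merged, 911 bp with a limit of 2000 bp, 1408 bp with all 3 libraries, 1360 bp with lists of equal length, and 1118 to 1307 bp with 1 animal left out. In the same order the mean H3K27ac fold was 4.32, 4.03, 3.75, 3.61, 3.43, 3.95 and 4.23, and 3.75 to 4.04 with 1 animal left out. The MBD3 fold was 7.38 and 7.07 with those q-value thresholds, 7.21 with all 3 libraries and 7.32 with equal lists. The cause of these changes was not tested.

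The TDG difference from acetylated regions without MBD3 kept its direction in all 14 alternatives run (0.387 to 1.03 points, exact permutation p from 0.1 to 0.333). The difference from polymerase-bound regions ranged from -0.331 (without animal 7) to 0.157 points with 1 animal left out and was -0.0963 without the chromosome 6 runs, an alternative chosen after seeing the data. It kept its direction in the other 12 of 14 and was over 0.25 with 9 classes of width and strength (0.306), the threshold for H3K27ac and MBD3 only (0.293), no other peak within 1000 bp (0.255), equal lists (0.252) and the threshold in all lists (0.251). The difference from H3K4me1-bearing regions turned positive with −log10 q of at least 5 in all lists (0.104), a limit of 2000 bp (0.0402), equal lists (0.320) and 9 classes of width and strength (0.124), and ranged from -1.16 to 0.370 with 1 animal left out. The log10 of each animal's own median distance to polymerase, averaged over animals, stayed lower with MBD3 in all 14 (differences of -0.131 to -0.0265). Within the 9 classes of width and strength the direction was mixed, negative in 17 of 27 combinations of class and animal and positive in 10. With the replicate block (pairing by animal, smallest exact permutation p 0.25), the p-values were 0.25 for the difference of 0.606 points, 0.5 for 0.0854 and 1 for -0.215. Neither test can pass 0.05 with 3 animals, so these p-values say nothing about stability.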
